A study of Mus musculus with 24 samples.

Results

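Exonic antisense long non-coding RNAs (lncRNAs) are transcripts that lie on the strand opposite to a protein-coding gene and overlap at least part of that partner gene's exons. 86 such lncRNAs were read across mouse tissues and germ cell-related cell lines, out of 60804 transcript probes on a mouse lncRNA microarray. Members were the probes annotated as exonic antisense in the lists of lncRNAs expressed in brain or in F9 cells, 32 from the brain list alone, 7 from the F9 list alone and 47 from both. Transcripts that the study lists as tissue-specific or testis-specific, which took away 1 exonic antisense probe, and transcripts named Gas5 or Snhg were left out. The rows held of those lists, 1553 for brain and 1404 for F9, are the ones brightest on replicate 1 of that group. Bright signal in brain or F9 is therefore how members came to be chosen, and levels there are given as a description with no test. On the scale used here the last member of the brain rows stood at 3.92 on brain replicate 1 and the last of the F9 rows at 4.96 on F9 replicate 1, and dimmer members of this class were not analysed here. Heart, kidney, liver, testis, GC-1 and GC-2 played no part in that ranking, and the comparisons rest on those 6 groups.

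The samples were 24 arrays in 8 groups of 3. Brain, heart, kidney, liver and testis came from 8-week-old male ICR mice, an outbred strain. F9 is a mouse embryonal carcinoma line, grown without retinoic acid, GC-1 is a line immortalised from spermatogonia and GC-2 is one immortalised from spermatocytes. All samples were untreated, and each line is a single established line, so its 3 arrays do not sample different animals and their spread may be technical. The testis holds germ cells together with somatic Sertoli and Leydig cells, and in whole tissue fewer cells of a type and less RNA per cell cannot be told apart.

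An antisense transcript can act on the locus that encodes it, by transcribing through the partner's promoter, by pairing with the partner's RNA, or by bringing chromatin-modifying proteins to the region. Kcnq1ot1, antisense to the potassium channel gene Kcnq1, is the classical example, since it silences neighbouring genes on the paternal chromosome. Nespos, listed as Gnasas1 by RefSeq, is the antisense transcript of the imprinted Gnas locus, which encodes the stimulatory G protein subunit. Other antisense transcripts share a promoter region with the partner or end inside its last exon, and for most no function is known.

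The level given for each array is the log2 of the background-subtracted intensity minus the array's 75th percentile over all transcript probes. Detection in a group meant that the spot was flagged well above background on each of its 3 arrays. The array's 75th percentile lay between 305 and 384 intensity units in testis, 30.7 and 49.8 in liver and 63.5 and 154 in the other groups, and 57.6% to 61.5% of probes were well above background in testis against 30.0% to 35.1% in liver. Over all probes the median of the differences, taken probe by probe, was -1.73 between testis and the mean of heart, kidney and liver, and 0.95 between liver and the mean of heart, kidney and testis (log2), so that changes in these tissues are read relative to those shifts. Each comparison was therefore repeated under 4 other scalings, and a call made with the same sign under all 5 is named as such, a rule chosen after the data were seen. All such calls kept their sign on the slide that holds replicate 1 of every group and among replicates 2 and 3. Both subsets are parts of the arrays that made the calls, so this is not independent support. Replicates 2 and 3 of heart, F9, GC-1 and GC-2 were on another slide than those of brain, kidney, liver and testis. Among these replicates, differences of heart from other tissues and of the GC lines from testis cannot be told apart from the slide. Liver replicate 1 stood apart, with a 95th percentile of its negative control spots at 13.6 intensity units against 2.97 to 4.97 on the other arrays. Of 49 marker genes for the tissues and lines, 6 had a probe that could be named from the study's lists. Some of those lists select transcripts by detection in a single tissue, so these readings are not an independent check of the labels. Whether each probe reads the mRNA of the gene was not analysed here. The Apoa1 probe was detected in liver alone, Snap25 in brain alone, Zfp42 (Rex1) in F9 and testis, Stra8 in testis and F9, and Star in testis, GC-1 and GC-2, while Gap43 was detected in brain and in all the lines.

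The members lay on 19 chromosomes opposite 82 partner genes. 36 lay within the span of the partner, 30 reached over its 5′ end, 19 over its 3′ end and 1 enclosed it. The transcripts were 255 to 4622 bases long, with a median of 1317, apart from Kcnq1ot1 with 83437. All 11 members taken from RefSeq had the same chromosome, start and end as in the GRCm38 annotation, which is the build used here. Which exon each probe lies in was not analysed here. For 11 members the annotation lists other transcripts that the probe may read, 17 of them for BC027122 and 1 to 3 for AK139113, BC028777, AK020034, E130307A14Rik, AK081141, AK136817, AK142890, 4933439C10Rik, Rab10os and 1 transcript of E130218I03Rik, and their values are not tied to the named locus alone.

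The array reads each lncRNA by a single 60-base probe, and the letters of some of these probes are given before their values. The first set is shown because probes of 3 different loci carried a stretch of the same letters, in capitals.
AK143701 (partner Cdc42bpa, chr1:180145481-180148151, minus strand): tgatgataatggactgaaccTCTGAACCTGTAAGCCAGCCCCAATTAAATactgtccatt
BC027122 (partner Cacna1s, chr1:136116577-136119822, minus strand): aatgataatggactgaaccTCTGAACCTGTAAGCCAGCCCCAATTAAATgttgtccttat
Gm20535 (partner Asap2, chr12:21252118-21255952, minus strand): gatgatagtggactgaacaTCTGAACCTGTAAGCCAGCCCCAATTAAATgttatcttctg
The coordinates are those of the transcript. The capitals mark a run of 30 bases that stood in all 3 probes and in 4 of the 1797 probes of the held rows (0.223%, either strand). The AK143701 and BC027122 probes shared 48 bases in a row.

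The second set carries, in capitals, 20 bases of the B2 element, a short interspersed repeat present in very many copies in the mouse genome.
AK133540 (partner Acad10, chr5:121622371-121624132, plus strand): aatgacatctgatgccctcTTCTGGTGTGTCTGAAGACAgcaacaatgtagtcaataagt
AK137830 (partner Galr2, chr11:116280100-116284360, minus strand): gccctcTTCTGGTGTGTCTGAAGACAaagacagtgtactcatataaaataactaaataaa
AK133765 (partner Vwa8, chr14:78945180-78947227, minus strand): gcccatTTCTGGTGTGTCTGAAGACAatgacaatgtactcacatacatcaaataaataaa
This run stood in 13 of the 1797 probes (0.723%, either strand).

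The third set holds the 3 members furthest above the other tissues in liver and the 1 furthest below, and each carries an alternating run of bases, in capitals.
9330020H09Rik (partner Ccnt1, chr15:98567324-98570864, plus strand): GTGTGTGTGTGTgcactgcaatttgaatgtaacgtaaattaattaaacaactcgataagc
AK089870 (partner Tgfa, chr6:86261555-86263914, minus strand): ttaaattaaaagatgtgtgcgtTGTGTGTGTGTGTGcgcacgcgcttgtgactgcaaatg
AK087376 (partner 1110051M20Rik, chr2:91281292-91283804, plus strand): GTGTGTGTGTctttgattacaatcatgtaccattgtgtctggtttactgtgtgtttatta
AK019605 (partner Rtn1, chr12:72407426-72410215, plus strand): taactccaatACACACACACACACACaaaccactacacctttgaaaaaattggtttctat

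The fourth set belongs to other members described one by one below, with large differences between groups, opposite the same partner or at imprinted loci. None of these shared 20 bases in a row with another probe of the held rows.
AK156916 (partner Mef2c, chr13:83663950-83667661, minus strand): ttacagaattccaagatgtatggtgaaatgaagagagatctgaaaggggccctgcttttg
AK131696 (partner Dnaaf3, chr7:4526634-4530575, plus strand): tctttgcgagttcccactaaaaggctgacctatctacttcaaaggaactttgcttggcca
BC028777 (partner Ntn3, chr17:24208861-24221545, plus strand): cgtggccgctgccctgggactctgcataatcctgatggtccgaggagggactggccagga
Hist1h2aj (partner Hist1h2bm, chr13:21721442-21722131, minus strand): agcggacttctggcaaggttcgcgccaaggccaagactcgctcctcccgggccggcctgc
AK136817 (partner Dchs1, chr7:105762741-105863650, plus strand): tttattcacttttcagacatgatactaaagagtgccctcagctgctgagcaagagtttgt
Gm15645 (partner Dchs1, chr7:105762321-105863650, plus strand): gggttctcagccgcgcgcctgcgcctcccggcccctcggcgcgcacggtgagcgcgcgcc
Kcnq1ot1 (partner Kcnq1, chr7:143213111-143296547, minus strand): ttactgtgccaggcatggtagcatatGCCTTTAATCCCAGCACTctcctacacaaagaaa
Nespos (partner Gnas, chr2:174281237-174295436, minus strand): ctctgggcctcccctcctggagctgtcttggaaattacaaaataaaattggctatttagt
The capitals in Kcnq1ot1 mark 18 bases of the B1 element, another short interspersed repeat, which stood in 2 of the 1797 probes (0.111%, either strand). The Gm15645 probe had the highest share of G and C of all members, 83.3%, against a median of 43.3%.

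Exonic antisense lncRNAs that were bright in brain or F9 were detected almost everywhere. 80 of the 86 members (93.0%) were detected in each of the 6 groups that the ranking did not use, on all 18 arrays, and the same 80 were detected in all 8 groups. Over all transcript probes of the array, chosen for no level, 14030 of 60804 (23.1%) were detected in all 6. Among the other lncRNAs of the same held rows, which were chosen by the same brightness, the share was 91.1% of 427 exonic sense, 91.9% of 37 bidirectional, 93.3% of 960 intergenic, 97.4% of 191 intronic antisense and 97.9% of 96 intronic sense lncRNAs. The antisense members thus lay within the range of the classes chosen in the same way, and no test of a difference between classes was made.

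**Figure D1:**
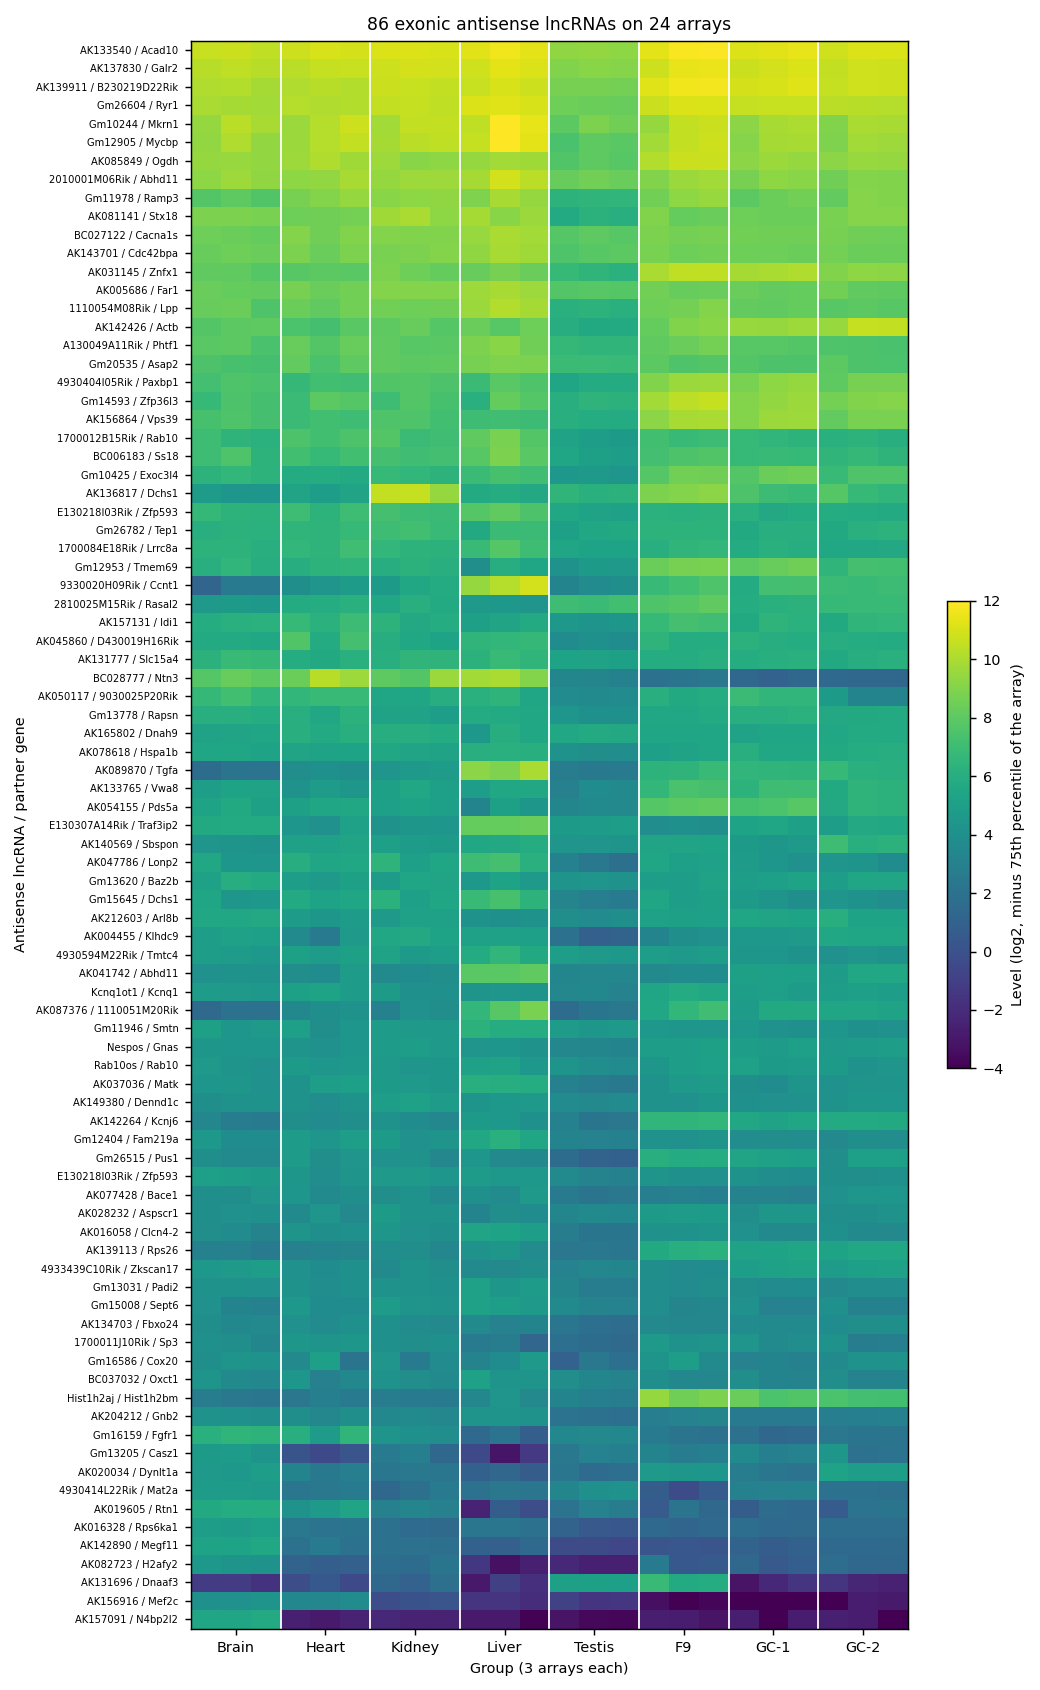
Level of each of the 86 exonic antisense lncRNAs (rows, named with the partner gene and ordered by the median of group means over heart, kidney, liver, testis, GC-1 and GC-2) on each of the 24 arrays (columns, 3 per group). Colour gives log2 intensity minus the array's 75th percentile, from -4 or below to 12. Most members keep a similar colour across groups, testis is darker than the rest in most rows, and the bottom rows hold the members that were not detected everywhere.

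6 members were missing from at least 1 of the 6 groups. AK157091, antisense to N4bp2l2, was detected in 2 of them and stood at 5.54 ± 0.19 (SD, n = 3) in brain against -2.35 ± 0.19 in kidney and -3.50 ± 0.30 in testis. It was not well above background on any liver array, and brain was at least 114-fold higher than liver. Its brain level is the one it was chosen for, so this contrast is a description.

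AK156916, antisense to Mef2c, which encodes a transcription factor of heart muscle and neurons, was detected in 3 of the 6 groups. Its levels were 3.49, 3.43 and 3.70 on the heart arrays, -0.22, 0.01 and 0.24 in kidney and -0.86, -1.59 and -1.46 in testis. Every heart array was above every array of kidney and testis, and brain read 4.04 to 4.30. It was not well above background on any array of liver, F9, GC-1 or GC-2, and heart was at least 28.5-fold higher than liver, 84.9-fold than GC-1 and 92.0-fold than GC-2. Against the mean of kidney, liver and testis, with liver at its measured value, heart was higher by 4.53 ± 0.20 on the log2 scale (SE, limma adjusted p = 1.61e-10), and by 3.37 to 4.66 over the 5 scalings. This was the largest difference in favour of heart among the members.

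AK131696, antisense to Dnaaf3, which encodes an assembly factor of the dynein arms of cilia and sperm flagella, was detected in 4 of the 6 groups. Its levels were 5.10, 5.11 and 5.04 in testis, 1.43, 1.04 and 1.93 in kidney and -0.23, 0.39 and -0.45 in heart. F9 stood at 6.15 ± 0.54 and GC-2 at -2.13 ± 0.49, and brain, which did not choose this member, at -1.36 ± 0.28. It was not well above background on any liver array, and testis was at least 77.3-fold higher than liver. Testis was above the mean of heart, kidney and liver by 5.26 ± 0.33 (log2, SE, limma adjusted p = 1.89e-09) and the mean of GC-1 and GC-2 was below testis by 7.30 ± 0.34 (adjusted p = 1.89e-09). On 2 of the 3 GC-1 arrays the probe was well above background. The signal was thus high in testis and low in both lines made from germ cells. It was high in F9 as well, but this member was chosen for its F9 signal, so that level is a description.

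The other 3 were each missing from liver alone. AK082723, antisense to the macroH2A histone gene H2afy2, read 4.30 ± 0.20 in brain, 1.90 ± 0.31 in kidney, 0.96 ± 0.11 in heart and -2.45 ± 0.21 in testis, and was not well above background on any liver array. Gm13205, antisense to the zinc-finger transcription factor gene Casz1, was well above background on 1 liver array and AK019605, antisense to the endoplasmic reticulum protein gene Rtn1, on 2. For AK082723, kidney was at least 9.10-fold higher than liver.

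**Figure D2:**
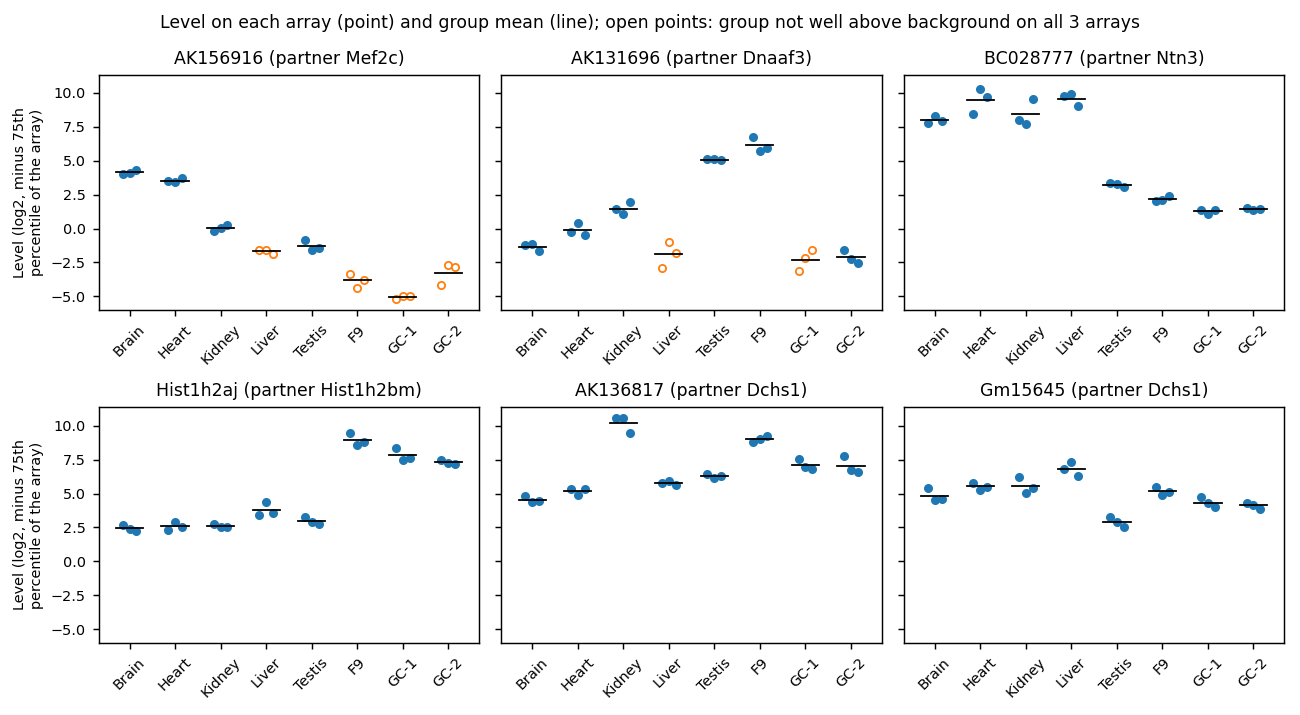
Level of 6 members (1 panel each, titled with the antisense transcript and its partner gene) in the 8 groups, as log2 intensity minus the array's 75th percentile, with 1 point per array and a line at the group mean. Open points mark groups that were not well above background on all 3 arrays. AK156916 is high in brain and heart, AK131696 in testis and F9, BC028777 in the 4 somatic tissues, Hist1h2aj in the lines, and of the antisense transcripts of Dchs1 AK136817 is highest in kidney while Gm15645 is not.

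The members were bright throughout and dimmest in testis, as were the other classes of the held rows. The medians of those classes in testis were 3.74 to 4.85, at median percentiles of 92.94 to 95.78. The median member stood at 3.86 in testis, 5.13 in heart, 5.17 in kidney and 5.76 in liver. GC-1 and GC-2 gave 5.39 and 5.57, and brain and F9, as a description, 5.35 and 5.92. Ranked within each array, which needs no scaling, the median member lay at percentile 93.31 of all probes in testis and between percentiles 94.96 and 95.66 in heart, kidney, liver, GC-1 and GC-2. Testis was the lowest of the 6 groups for 69 members by level and for 40 by percentile. Liver was the highest for 38 by level and 25 by percentile. The same counts over all probes were not made. By level, 68.0% of all probes were called lower and 18.9% higher in testis than in the mean of heart, kidney and liver. For liver against the mean of heart, kidney and testis, 55.3% of all probes were called higher and 15.4% lower. The share of probes above background was highest in testis.

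The brightest probes were AK133540 (partner Acad10, an acyl-CoA dehydrogenase gene), AK137830 (Galr2, a galanin receptor gene), AK139911 (B230219D22Rik), Gm26604 (Ryr1, the calcium release channel gene of skeletal muscle) and Gm10244 (Mkrn1, a ubiquitin ligase gene). The median of their group means over the 6 groups was between 9.96 and 11.1, with group means of AK133540 from 9.35 ± 0.04 in testis to 11.4 ± 0.19 in liver. Signal depends on the letters of a probe as well as on the amount of RNA, so brightness does not rank these transcripts by abundance. 19 of the 86 members, 17 of them with no other transcript listed for the probe, shared a run of at least 20 bases with another probe of the held rows, with AK133540 sharing such a run with 17 and AK137830 with 15 of those probes. The median over these 19 of the level in the 6 groups was 7.55, against 4.62 over the other 67. The part of these runs in the signal was not tested.

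**Figure D3:**
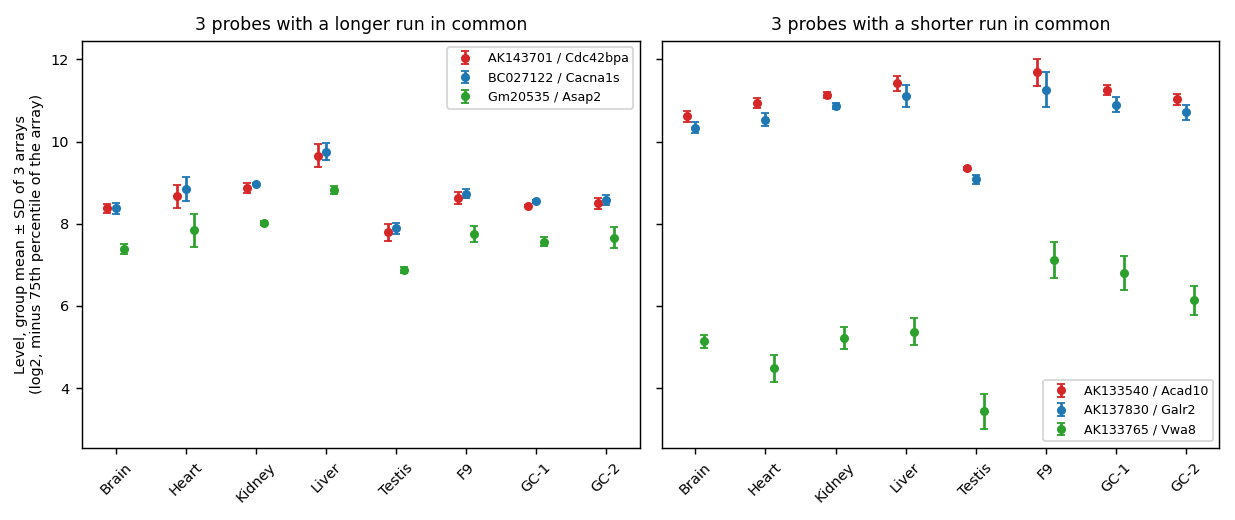
Group means ± SD of 3 arrays (log2 intensity minus the array's 75th percentile) in the 8 groups for the 3 members whose probes share a 30-base run (left) and the 3 that share a 20-base run (right). On the left, AK143701 and BC027122 overlap in every group and Gm20535 runs parallel below them. On the right, AK133540 and AK137830 run together, and AK133765 is lower with a wider range. Levels of different probes are not comparable, so only the shapes are to be compared.

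Most pairs of members that share a run had like profiles. The 7 pairs with at least 20 bases in common had r from 0.814 to 0.999 between their group means, the pair of Gm12953 and AK054155 with 19 bases had r = 0.999, and pairs with 16 or 17 bases had r from 0.691 to 0.975. These values, like the other correlations given here, are over the 8 groups, brain and F9 included, and the points share arrays and scaling. AK143701, antisense to the kinase gene Cdc42bpa, and BC027122, antisense to the muscle calcium channel gene Cacna1s, were both lowest in testis (7.79 ± 0.20 and 7.89 ± 0.13) and highest in liver (9.66 ± 0.27 and 9.75 ± 0.21). Their group means correlated with r = 0.996, and those of Gm20535 with BC027122 with r = 0.999, where the median pair of members had r = 0.40 and the upper quartile 0.68. What each partner locus contributes to these readings was not analysed here. AK133765, which shares 20 bases with AK133540 (r = 0.823), read 3.43 ± 0.43 in testis and 6.80 ± 0.41 in GC-1.

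Nearly all members differed among heart, kidney, liver and testis under the 75th percentile scaling, and so did nearly all probes. 85 of 86 members passed an adjusted p of 0.05 (limma, moderated F, Benjamini-Hochberg over all 60804 probes), against 93.5% of all probes. 53 members (61.6%) passed under all 5 scalings, against 49.0% of all probes. Asking under the 75th percentile scaling for a fold of at least 5 between the highest and lowest tissue as well left 36 members, against 67.9% of all probes, and 31 of the 36 were among the 53. The median range of group means over the 6 groups was 2.69 (log2), with quartiles of 1.90 and 3.76, and 3.32 over all probes, while the other classes of the held rows had medians of 2.49 to 3.34.

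**Figure D4:**
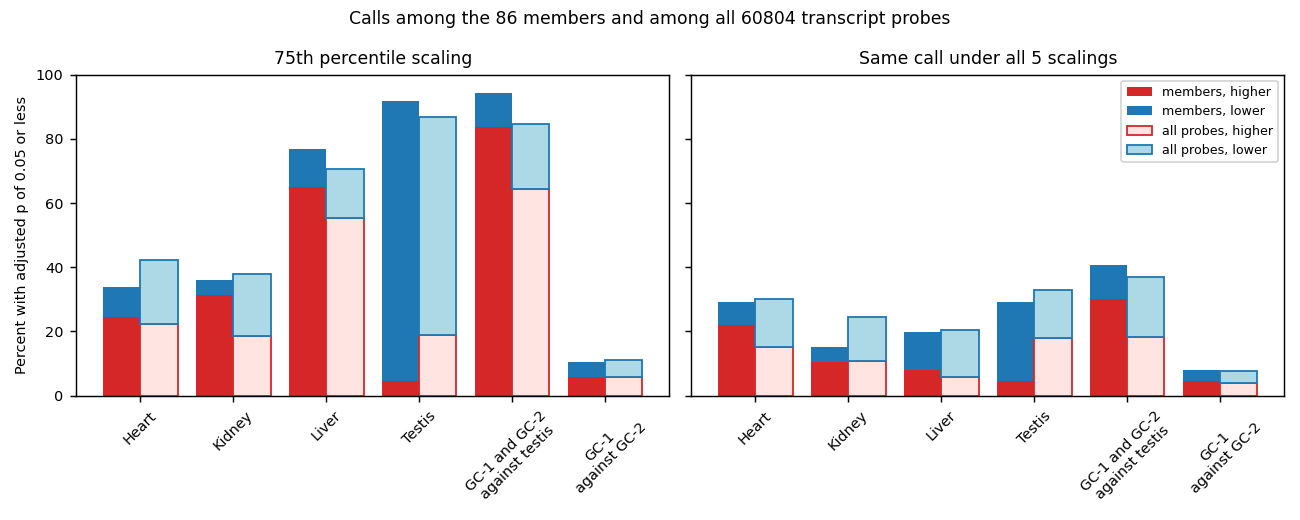
Percent of the 86 members (filled bars) and of all 60804 transcript probes (pale bars) called higher (red) or lower (blue) in 6 comparisons, each tissue against the mean of the other 3 among heart, kidney, liver and testis, the mean of GC-1 and GC-2 against testis, and GC-1 against GC-2. The left panel is the 75th percentile scaling and the right panel asks for the same call under all 5 scalings. The split between higher and lower shifts between the panels, most in liver and testis.

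Heart. 29 members differed from the mean of kidney, liver and testis, 21 of them higher and 8 lower, where 42.2% of all probes were called, 22.4% higher and 19.8% lower. With the same call asked of all 5 scalings there were 25, with 19 higher and 6 lower, against 30.2% of all probes, 15.2% higher and 15% lower. After AK156916 the members highest in heart were AK019605 of Rtn1 (by 3.03 ± 0.47, limma adjusted p = 8.02e-05) and Gm16159, antisense to the fibroblast growth factor receptor gene Fgfr1 (by 2.78 ± 0.30, adjusted p = 2.30e-06). Gm16159 read 5.78 ± 0.84 in heart, 4.05 ± 0.20 in kidney and 1.47 ± 0.60 in liver. AK136817 of Dchs1 was lower in heart by 2.24 ± 0.24 than in the mean of the others, of which kidney was far the highest. With the slide of the array as a block, 19 members were called, against 29.2% of all probes.

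Kidney. 31 members differed from the mean of heart, liver and testis, 27 of them higher and 4 lower, where 37.8% of all probes were called, 18.7% higher and 19.1% lower. Calls that held in each of the 5 scalings numbered 13, with 9 higher and 4 lower, against 24.5% of all probes, 10.9% higher and 13.5% lower. The largest difference was that of AK136817, whose probe has 1 other transcript listed, antisense to the protocadherin gene Dchs1, which works in planar cell polarity. The AK136817 probe lies outside the annotated span of Dchs1. Its levels were 10.5, 10.6 and 9.44 on the kidney arrays, 4.88 to 5.34 in heart, 5.63 to 5.92 in liver and 6.13 to 6.47 in testis. No array of those tissues came near the kidney arrays, and kidney was higher by 4.43 ± 0.24 (log2, SE, limma adjusted p = 1.72e-09). AK082723 of H2afy2 followed with 3.20 ± 0.30, of which liver, not well above background there, is part, and AK004455 of Klhdc9 with 2.17 ± 0.32 (adjusted p = 6.35e-05). AK004455 read 5.52 ± 0.19 in kidney and 5.12 ± 0.09 in liver, against 3.62 ± 0.99 in heart and 1.31 ± 0.56 in testis. The 4 lower in kidney were E130307A14Rik (by -1.51 ± 0.21), AK041742 (by -1.40 ± 0.21), 4930414L22Rik (by -0.89 ± 0.24) and AK089870 (by -0.70 ± 0.22), and all but 4930414L22Rik were far higher in liver, which is part of the mean they were set against.

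Liver. 66 members differed from the mean of heart, kidney and testis, 56 of them higher and 10 lower, where 70.7% of all probes were called, 55.3% higher and 15.4% lower. This split followed the scaling, since with the median of the probes above background in place of the 75th percentile 52 were called and 7 of them were higher, where 63.7% of all probes were called, 17.3% higher and 46.4% lower. Across the 5 scalings 17 calls held, 7 higher and 10 lower, against 20.4% of all probes, 5.88% higher and 14.5% lower. The 7 were 9330020H09Rik, AK089870, AK087376, AK041742 of the hydrolase gene Abhd11, E130307A14Rik of the interleukin-17 adaptor gene Traf3ip2, BC028777 of the netrin gene Ntn3 and 1110054M08Rik of Lpp, with E130307A14Rik and 1110054M08Rik named here after their values were seen. BC028777 read 9.58 ± 0.49 in liver and 9.47 ± 0.96 in heart, and these arrays overlapped. It read 3.24 ± 0.17 in testis, which is part of the mean that liver was set against. 9330020H09Rik, antisense to the cyclin gene Ccnt1, read 9.46, 10.2 and 10.9 on the liver arrays and 3.19 to 5.86 on those of heart, kidney and testis, and was higher in liver by 5.73 ± 0.37 (limma adjusted p = 9.89e-09). AK089870, antisense to the growth factor gene Tgfa, read 8.93 to 9.94 in liver and 2.47 to 4.80 in the same tissues, a difference of 5.63 ± 0.22 (adjusted p = 3.18e-11).

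The 3 members with the largest liver differences were the ones whose probes hold an alternating run of G and T. This was seen after the values, and so the run was looked for in the other classes of the held rows. There, 14 more probes held at least 10 bases of alternating G and T, and their liver difference ranged from 2.16 to 6.56 with a median of 5.09, where the median over all 1797 probes was 0.62. All 14 lay above that median. 7 probes of other classes held a run of alternating A and C, the complementary letters, and their liver difference ranged from -4.44 to 0.92 with a median of -3.36, beside a median heart difference of 3.00. The pattern did not hold for all of them, since 2 of the 7 lay above the median of all held probes in liver. Among the members, the 2 with such a run of at least 10 bases were AK019605 of Rtn1 and Gm16159 of Fgfr1, both named above as high in heart and low in liver. Probes of unrelated loci thus shared these letters, most of them with a like profile, and the part of the run in the signal was not tested.

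**Figure D5:**
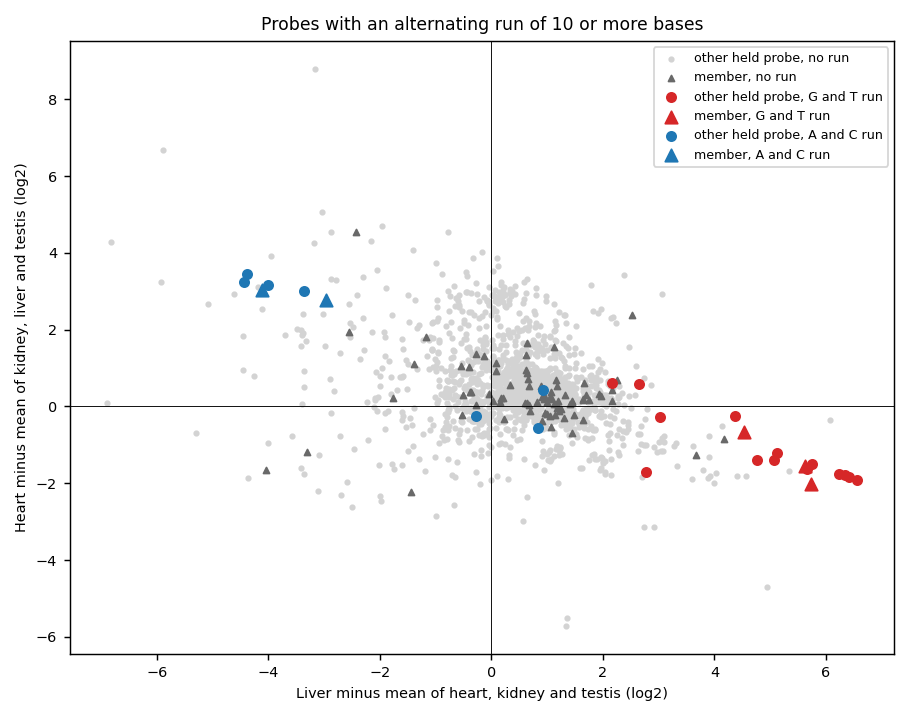
Each point is a probe of the held rows (1797 in all), placed by its level in liver minus the mean of heart, kidney and testis (x axis, log2) and its level in heart minus the mean of kidney, liver and testis (y axis, log2). Triangles are exonic antisense members and circles other classes, red marks probes with an alternating G and T run of at least 10 bases and blue an alternating A and C run. All red points lie to the right of 2 on the x axis, and of the 9 blue points 6 lie at the upper left and the other 3 near the centre.

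AK041742 and E130307A14Rik had no such run. AK041742 read 7.97 ± 0.11 in liver against 3.40 ± 0.03 to 4.20 ± 0.58 in the other 3 tissues and was higher in liver by 4.17 ± 0.21 (limma adjusted p = 5.92e-10), and E130307A14Rik read 8.26 ± 0.06 against 4.37 ± 0.12 to 4.83 ± 0.13. On the low side in liver were AK019605 (by -4.12 ± 0.47), AK131696 (by -4.05 ± 0.33) and Gm13205 (by -3.31 ± 0.44), all 3 among the members not detected in liver, so that these fitted differences include readings near background.

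Testis. 79 members differed from the mean of heart, kidney and liver, 75 of them lower and 4 higher, where 86.9% of all probes were called, 68.0% lower and 18.9% higher. With the median of the probes above background as the scaling, 45 were called, 24 of them higher, where 69.9% of all probes were called, 33.5% higher and 36.5% lower. The calls that held in all 5 scalings were 25, with 4 higher and 21 lower, against 32.9% of all probes, 17.9% higher and 15% lower. Transcripts listed as testis-specific are not among the members. The 4 were AK131696 of Dnaaf3, Gm13205 of Casz1 (by 2.57 ± 0.44), 4930414L22Rik (by 1.64 ± 0.24) and 2810025M15Rik, antisense to the Ras regulator gene Rasal2 (by 1.60 ± 0.17, limma adjusted p = 5.52e-07). Gm13205 read 2.38, 3.06 and 2.90 in testis and overlapped kidney at 2.61, 2.94 and 1.32. Its heart level was -0.04 ± 0.38 and its liver level -1.63 ± 1.31, with 1 liver array well above background. 4930414L22Rik, listed as Particl by RefSeq, is antisense to Mat2a, the gene for the enzyme that makes S-adenosylmethionine, and read 3.85 ± 0.42 in testis, 1.95 ± 0.57 to 2.46 ± 0.20 in heart, kidney and liver and 0.34 ± 0.61 in F9.

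The steepest fall in testis was that of BC028777, antisense to Ntn3, whose probe has 1 other transcript listed. Its levels were 3.37, 3.30 and 3.05 in testis, and 9.77, 9.94 and 9.02 in liver, 8.43, 10.3 and 9.68 in heart and 8.03, 7.70 and 9.58 in kidney. The lowest somatic array was above the highest testis array, and testis was lower by 5.92 ± 0.40 (log2, SE, limma adjusted p = 4.15e-09) and by 4.39 to 5.92 over the 5 scalings. The lines were lower still, with 1.26 ± 0.18 in GC-1 and 1.43 ± 0.06 in GC-2. AK047786 of the peroxisomal protease gene Lonp2 (by -3.59 ± 0.35) and AK004455 of Klhdc9 (by -3.45 ± 0.32) came next.

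Cell lines. 81 members differed between testis and the mean of GC-1 and GC-2, 72 of them higher in the lines and 9 lower, where 84.7% of all probes were called, 64.5% higher and 20.2% lower. Of these, 35 held in all 5 scalings, 26 higher and 9 lower in the lines, against 37.1% of all probes, 18.4% higher and 18.7% lower. The largest difference was that of Hist1h2aj, a replication-dependent histone transcript lying antisense to the histone gene Hist1h2bm, whose probe was listed with the lncRNAs. Its levels were 8.36, 7.48 and 7.64 in GC-1, 7.50, 7.24 and 7.16 in GC-2 and 3.24, 2.91 and 2.73 in testis. The lines did not overlap testis or any other tissue, where the highest array read 4.36, and were higher than testis by 4.61 ± 0.26 (log2, SE, limma adjusted p = 1.10e-08). AK142426, antisense to the cytoskeletal actin gene Actb, was higher by 4.07 ± 0.27 and AK089870 of Tgfa by 3.79 ± 0.19.

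Lower in the lines, after AK131696, were AK156916 of Mef2c and BC028777 of Ntn3. Testis was above GC-1 by at least 2.95-fold and above GC-2 by at least 3.20-fold for AK156916, which was not well above background on any array of either line. BC028777 was lower in the lines by 1.90 ± 0.17 (limma adjusted p = 7.62e-07).

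GC-1 against GC-2. 9 members differed, 5 of them higher in GC-1 and 4 lower, 1 of the 4 being AK156916 with both readings not above background, where 11% of all probes were called, 5.8% higher and 5.18% lower. 7 held in all 5 scalings, 4 higher and 3 lower, against 7.73% of all probes, 4.08% higher and 3.66% lower. AK050117, antisense to 9030025P20Rik, read 6.90, 6.50 and 6.55 in GC-1 and 4.70, 3.20 and 3.17 in GC-2, a difference of 2.96 ± 0.35 (limma adjusted p = 1.41e-04). AK020034, antisense to the dynein light chain gene Dynlt1a, read 2.71, 2.25 and 2.12 in GC-1 and 5.28, 4.90 and 4.93 in GC-2, a difference of -2.68 ± 0.24 (adjusted p = 1.57e-05). In both, the arrays of the lines did not overlap. Gm12953 of Tmem69 and AK054155 of Pds5a, a cohesin regulator gene, were higher in GC-1 by 1.31 ± 0.27 and 1.43 ± 0.25, and their probes share 19 bases. AK140569 of Sbspon was lower by 1.86 ± 0.24. AK031145 of Znfx1 (by 0.79 ± 0.22) and AK077428 of the beta-secretase gene Bace1 (by -1.18 ± 0.20) complete the 7. With the slide as a block 17 members were called, against 15.6% of all probes, and with the replicate number as a block 14, against 12.8%.

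The members that changed least were AK165802, antisense to the axonemal dynein gene Dnah9, with a range of 0.62 between its highest and lowest group mean over the 6 groups, AK028232 of Aspscr1 (0.93), Gm13620 of the bromodomain gene Baz2b (0.99), Rab10os of Rab10 (1.03) and BC037032 of the ketone body enzyme gene Oxct1 (1.14). AK165802 read between 5.33 ± 0.11 in GC-1 and 5.95 ± 0.16 in heart. On the liver arrays it read 4.51, 5.97 and 5.54, the lowest on replicate 1, a wider spread than the range of its group means.

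The antisense transcripts of imprinted loci were detected in every group and kept narrow ranges. Kcnq1ot1 read 5.08 ± 0.22 in heart, 4.25 ± 0.38 in kidney, 4.30 ± 0.03 in liver, 3.33 ± 0.19 in testis, 4.94 ± 0.07 in GC-1 and 4.96 ± 0.04 in GC-2. It was higher in heart by 1.13 ± 0.19 (limma adjusted p = 2.16e-04), a call kept under all 5 scalings. Nespos read 4.81 ± 0.16 in kidney, 4.27 ± 0.14 in heart, 4.29 ± 0.14 in liver, 3.35 ± 0.11 in testis and 4.80 ± 0.19 to 4.95 ± 0.10 in the GC lines, and was higher in kidney by 0.85 ± 0.16 (adjusted p = 6.32e-04), again under all 5 scalings. Both were lower in testis under the 75th percentile scaling, and neither kept that call under all 5.

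By the function of the partner gene, groups of members did not move as one. Each tissue call is against the mean of the other tissues, so a member called higher need not stand above each of them. The counts below are of calls under all 5 scalings, and stand beside 15.2% of all probes higher and 15% lower in heart, 10.9% higher in kidney, 5.88% higher in liver, 17.9% higher and 15% lower in testis, and 18.4% higher and 18.7% lower in the GC lines. Of 7 members whose partners are neuron or synapse genes, 4 were higher in heart under all 5 scalings (AK019605, BC028777, AK142890 and Gm13778), and 2 were lower in testis (BC028777 and AK142890). Heart read 9.47 against 9.58 in liver for BC028777, 2.19 against 1.96 in kidney for AK142890 and 5.95 against 5.71 in liver for Gm13778. The arrays of these tissues overlapped, and testis was the lowest tissue in each case. AK019605 was not detected in liver, and its probe holds an A and C run. Of 5 with muscle partners, 1 was higher in heart, AK156916 of Mef2c. Gm26604 of Ryr1 and BC027122 of Cacna1s had their highest group mean in liver, but neither was called higher there under all 5 scalings. Both probes share 20 bases in a row with other probes of the held rows. Of 10 members with partners in mitochondrial and lipid metabolism, 1 was higher in liver under all 5 scalings, AK041742 of Abhd11, and in testis 4930414L22Rik of Mat2a was higher and AK047786 of Lonp2 lower. Of 14 with chromatin and transcription partners, 5 were higher in the GC lines than in testis under all 5 scalings, with partners H2afy2, Hist1h2bm, Pds5a, Ccnt1 and Paxbp1, and that of Mef2c was lower. The Pds5a and Paxbp1 probes share 20 bases in a row with another held probe, and the Ccnt1 probe holds a G and T run. Of the 14, 4 were higher and 1 lower in heart, and 3 were higher in kidney. In liver 1 was higher and 4 lower (14.5% of all probes lower), and in testis 1 was higher and 3 lower. The 3 dynein partners gave 3 profiles, high in testis (Dnaaf3), high in GC-2 (Dynlt1a) and nearly level (Dnah9). Of 9 with partners in vesicle traffic, 2 were higher in kidney (Stx18 and Dennd1c), 1 was higher in testis (Rasal2) and 2 were lower there (Stx18 and Rab10) under all 5 scalings. The Stx18 probe shares 20 bases in a row with another held probe. Of 7 with receptor and signalling partners, 2 were higher in heart (Fgfr1 and Rps6ka1) and 2 lower (Tgfa and Traf3ip2), and of 4 with actin cytoskeleton partners 2 were lower in testis (Actb and Lpp), again under all 5 scalings. The Fgfr1 and Tgfa probes hold alternating runs. Over all members the median difference was -1.53 in testis, 0.94 in liver, 0.42 in kidney and 0.20 in heart, against -1.73, 0.95, 0.10 and 0.14 over all probes.

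Where a partner had more than 1 antisense member, the profiles could differ within the locus. Of the Dchs1 pair, AK136817 was 4.43 higher in kidney, while Gm15645 read 5.55 ± 0.62 in kidney, 5.52 ± 0.28 in heart and 6.82 ± 0.51 in liver. Their group means over the 8 groups had r = 0.04. The annotated transcripts span almost the same stretch of chromosome 7, but their probes lie far apart within it and differ in their letters. The Gm15645 probe lies at 105762598-105762674, within the annotated Dchs1 span of 105752989-105787550. The AK136817 probe lies at 105863524-105863650, outside that span, so the kidney signal was not read opposite Dchs1 itself. Of the Abhd11 pair, AK041742 was 4.17 higher in liver and 2010001M06Rik read 10.4 ± 0.52 in liver against 8.40 ± 0.16 to 9.59 ± 0.09 in heart, kidney and testis (r = 0.60). The Rab10 pair, 1700012B15Rik and Rab10os, and the Zfp593 pair, which are different transcripts of E130218I03Rik, ran more alike (r = 0.77 and 0.76), above the upper quartile of all pairs of members.

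A reading of the sense strand could be named at 3 loci. The mRNA probe of Rps6ka1, which encodes a ribosomal S6 kinase, was detected in testis, F9, GC-1 and GC-2 and highest in testis (0.79 ± 0.10). Its antisense AK016328 was lowest in testis (0.63 ± 0.39) and highest in brain (4.95 ± 0.09, r = -0.70 over 8 groups). The mRNA probe was named through the study's list of testis-specific mRNAs expressed in the lines, and AK016328 was chosen for its brain signal. The opposite order of testis and brain thus follows from how the probes were picked and is a description. At Cox20, an assembly factor gene of cytochrome c oxidase, the exonic sense lncRNA was higher in heart (7.28 ± 0.25) than in liver (6.20 ± 0.18), where the antisense Gm16586 read 3.60 ± 1.43 and 3.86 ± 0.76 (r = 0.26). At Fbxo24 the antisense AK134703 and an exonic sense lncRNA had r = 0.26. Levels of different probes are not comparable, so only the order of groups within a probe is given, and nothing is drawn from 3 loci.

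The median range over the 6 groups was 2.77 for the 36 members within the partner's span, 2.64 for the 30 over its 5′ end and 2.61 for the 19 over its 3′ end, and 33, 28 and 18 of these were detected in all 6 groups. The probes of 15 members had over 60% of G and C. Their median level was 8.20 in liver and 4.97 in testis, against 5.34 and 3.70 for the 63 members with 50% or less.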

How the data were processed

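Total RNA of 24 samples (3 biological replicates per group, per the study's methods) was labelled with Cy3 and hybridised to 1-colour Agilent arrays of 60-base probes. The authors deposited the scanner output of each array as intensity values, background-subtracted by Feature Extraction 11.5.1.1, with flags for spots well above background, and a table of the same processed signals. The deposited intensity values were not normalized between arrays. Here each intensity was turned into log2 and the array's 75th percentile over the 60804 transcript probes was subtracted, and control spots were left out. The deposited values were tested on the log2 scale with limma 3.58.1 (R 4.3.3), with Benjamini-Hochberg adjustment over all probes and a threshold of 0.05. The 5 tissues formed 1 fit of 15 arrays, and testis with F9, GC-1 and GC-2 another of 12 arrays. The scripts were tested on simulated data. The number of arrays limits the precision.

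The members and the lists of partner functions were chosen with earlier results of these data known. Members were named when called with the largest differences, when not detected in all groups, when brightest, dimmest or least variable, when imprinted, or when sharing a partner or probe letters. A group not well above background on any array gives only a bound, set at the higher of the probe's own signal and the lowest signal well above background on each array. Alternatives were 4 other scalings (quantile, the median of probes above background, the 75th percentile of probes above background on all arrays, and normexp with an offset of 50 and quantile), slide and replicate blocks, a fold of 5, the methods' t-test, and leaving out each array. The normexp correction used the median spot signal. The lists held only the brightest transcripts, and no genome was used, so exon positions were not analysed here. Probe and transcript positions came from the annotation of the lists.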

Additional observations from a re-analysis of the deposited data

How the results depend on the processing

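Of 31 named results, 645 values under the alternatives kept their direction and their side of the threshold, 1 lost its call (AK156916 between GC-1 and GC-2 under normexp, not above background in either line) and 0 reversed. These results were picked as the largest called differences whose arrays do not overlap. The alternatives use the same arrays, so the stability was close to fixed in advance and is not independent support. Counts of members moved more. Under all 5 scalings the counts fell to 53 among the tissues, 13 in kidney, 17 in liver, 25 in testis and 35 for the GC lines against testis. Asking for a fold of 5 left 36 members among the tissues (67.9% of all probes), 4 in heart (11%), 2 in kidney (9.44%), 12 in liver (10.7%), 19 in testis (45.7%), 21 for the GC lines (28.4%) and 2 between GC-1 and GC-2 (3.32%). The methods' t-test called 8 members in heart (15.2% of all probes), 8 in kidney (11.1%), 43 in liver (42.8%) and 28 between GC-1 and GC-2 (17.9%), and after Benjamini-Hochberg 1 (4.9%), 1 (2.31%), 24 (31.9%) and 5 (5.08%). With the median of probes above background as the scaling 45 were called in testis (69.9%), and normexp gave 15 between GC-1 and GC-2 (13.8%). The slide block gave 19 in heart (29.2%) and 17 between GC-1 and GC-2 (15.6%). Without the 19 members whose probe shares 20 bases with another, an alternative added after seeing the data, 20 were called in kidney. The causes of these shifts were not tested, apart from the smaller number of members in the last.

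The replicate block gave 14 calls between GC-1 and GC-2 (12.8% of all probes). Same-numbered samples deviated together with a correlation over 0.1 in 26 of 28 pairs of groups for replicate 1, whose arrays share a slide, and in 15 and 17 of 28 for replicates 2 and 3. Since not every pair did, the numbers were not taken as a pairing.

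Leaving out 1 array at a time gave 80 to 81 members detected in all 6 groups, and 79 to 84 calls among the tissues, 24 to 30 in heart, 24 to 35 in kidney, 64 to 68 in liver, 77 to 80 in testis, 73 to 81 for the GC lines against testis and 7 to 12 between GC-1 and GC-2.

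The member median above the median of all probes went under quantile normalization from 8.43 to 9.08 in brain, 8.26 to 8.62 in heart, 7.19 to 7.58 in testis, 8.56 to 8.41 in kidney, 8.64 to 8.78 in liver, 9.35 to 8.93 in F9, 8.87 to 8.58 in GC-1 and 9.16 to 8.67 in GC-2. Signal near background limits the low values, above all in liver.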
